A study of Zea mays with 12 samples.

Results

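Among 108342 maize (Zea mays) gene models measured from unpollinated kernels to developing endosperm, 140 had their highest signal before pollination by a wide margin in both of 2 reciprocal crosses. BxM is the inbred line B73 pollinated by Mo17, and MxB is Mo17 pollinated by B73. For both crosses there is 1 RNA library from whole kernels at 0, 3 and 5 days after pollination (DAP) and 1 from endosperm at 7, 10 and 15 DAP, which gives 12 libraries. At 0 DAP no pollen had been applied, so the BxM library of that age holds B73 kernels alone and the MxB library holds Mo17 kernels alone. The labels speak of 3 replicates of the plant material for each of the 12 samples, but 1 column was deposited for each, so single libraries carry no spread of their own.

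The members were chosen from their measured values. For each cross the score was the log2 of the 0 DAP signal plus 1, divided by the highest later signal plus 1, where the signal is in the authors' scaled RPM (reads scaled to a common library size). The lower of both crosses' scores had to be above 1, so that the 0 DAP value stood over 2-fold above every later one, with at most 150 models kept. All 140 models above 1 entered, and the limit of 150 was not reached. Scores ran from 1.00 to 3.14 with a median of 1.23. The values at 0 DAP set against later ages are therefore a description and are given with no test, and tests are given only among the ages after pollination and between the crosses at those ages.

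An unpollinated maize kernel is a ripe ovary. Its bulk is maternal: the ovary wall that becomes the pericarp, and the nucellus that surrounds the embryo sac with the egg and the central cell. Pollination starts the embryo and the endosperm, the nucellus is consumed as the endosperm grows, and the ovary wall expands. In these bulk samples fewer cells of a type and less RNA per cell cannot be told apart. Floral organ identity genes of the MADS-box family, auxin response genes, receptor kinases of the ERECTA family and, in green ovary walls, photosynthesis genes are among the classes known to act in such tissues.

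Most of the members' signal was gone from kernels within 3 days of pollination. The median member had 15.0, 2.83, 2.23, 0.311, 0.246 and 0.118 RPM in BxM at 0, 3, 5, 7, 10 and 15 DAP. In MxB the medians at the same ages were 12.2, 3.27, 1.31, 0.256, 0.295 and 0.0717 RPM. The 140 members summed to 974 and 1293 RPM at 3 DAP in BxM and MxB, against 4475 and 4101 RPM at 0 DAP. Of its own 0 DAP signal the median member kept 19.4% in BxM and 28.3% in MxB at 3 DAP, 16.5% and 12.1% at 5 DAP, and 1.98% and 1.64% at 7 DAP. The median over all models of at least 1 RPM at 0 DAP kept 93.3% in both crosses at 3 DAP, and 81.0% in BxM and 78.1% in MxB at 7 DAP. Because the rule caps every later value of a member, these shares restate the choice of members.

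**Figure D1:**
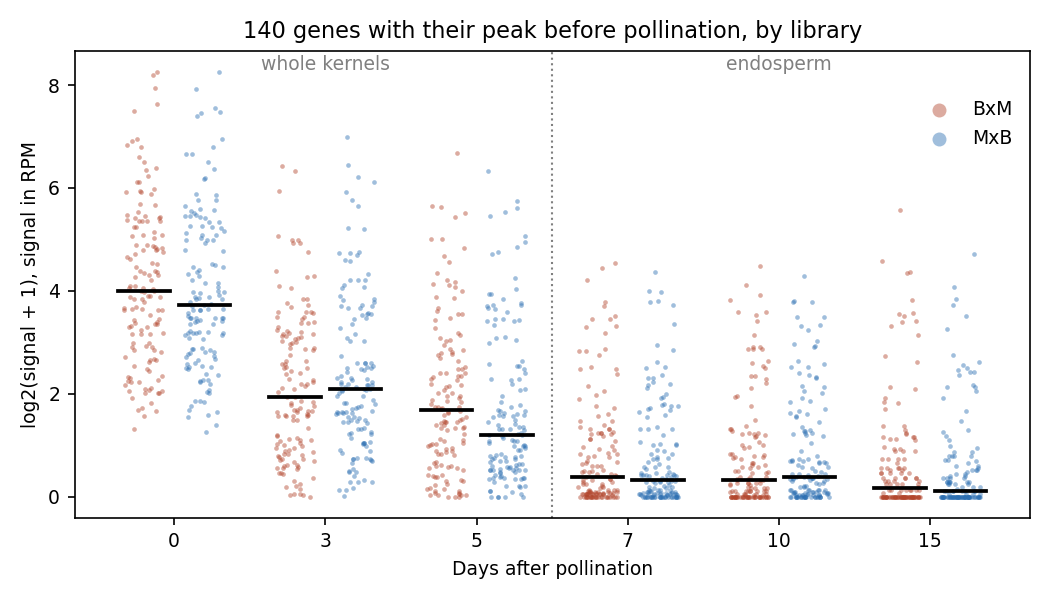
Signal of the 140 members in each of the 12 libraries, as log2 of RPM plus 1 (vertical axis) against days after pollination (horizontal axis), with BxM left of MxB at each age; every point is 1 gene model, black bars are medians, and the dotted line divides whole kernels from endosperm. The BxM medians correspond to 15.0 RPM at 0 DAP, 2.83 RPM at 3 DAP and 0.311 RPM at 7 DAP, and the MxB medians to 12.2, 3.27 and 0.256 RPM.

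The members covered a wide range before pollination. At 0 DAP they spanned 1.49 to 304 RPM in BxM and 1.38 to 303 RPM in MxB, and 74 of them had at least 10 RPM in both libraries. Only 6 had at least 100 RPM in both, and these 6 held 29.8% of the members' summed signal in BxM and 28.6% in MxB. RPM does not correct for gene length, so levels of different genes are not ranked against each other beyond this. After pollination 77 members stayed under 1 RPM in all 6 endosperm libraries, and 16 stayed under 1 RPM in all 10 later libraries.

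Of the 140 members, 82 matched an entry in RefSeq's gene table (assembly Zm-B73-REFERENCE-NAM-5.0), and 18 had a gene symbol there. The other members are named by their model identifiers. The build of the files is not given in the sources used here, so no coordinates are printed.

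Of the 18, 6 are transcription factors. ARF4 (GRMZM2G034840), of the auxin response factors that carry the auxin signal to target genes, had the highest score of all members. In BxM it had 14.7, 0.602, 0.128, 0.774, 0.655 and 0.472 RPM at 0, 3, 5, 7, 10 and 15 DAP, and in MxB 19.2, 1.06, 0.159, 0.346, 0.344 and 0 RPM. Both 0 DAP libraries thus stood far above all 10 later ones, and in both crosses most of the difference was already there at 3 DAP. Of 17 auxin response factor models with at least 1 RPM in both 0 DAP libraries, ARF4 was the only member. Of all 25796 models above that level 140 were members (0.543%). ARF16 came next with a score of 0.92, and the median score of the 17 was -0.97, against -0.89 for all models above the same level.

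RADIALIS (GRMZM2G114503) is named for a small MYB-type protein that sets flower asymmetry in snapdragon. It had 15.0, 1.95, 1.03, 0, 0 and 0 RPM in BxM and 32.7, 0.396, 0.266, 0, 0.0327 and 0 RPM in MxB at the 6 ages. It was near 0 in all 6 endosperm libraries. The transcription factor yabby15 (GRMZM2G529859) belongs to the YABBY family, which acts in lateral organs such as leaves and carpels. It had 0.76 and 0.68 RPM at 3 DAP in BxM and MxB, against 6.57 and 5.98 RPM at 0 DAP, so the crosses were nearly equal at both ages.

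The rest of the YABBY family did not share that course in kernels. Of 5 YABBY models with at least 1 RPM in both 0 DAP libraries, yabby15 alone was a member, and the other 4 had scores of -1.46 to -1.71. YAB11, for example, had 55.2 and 18.5 RPM at 3 DAP in BxM and MxB, against 19.3 and 8.86 RPM at 0 DAP. YAB5 had 59.7 and 76.7 RPM at 3 DAP, against 51.4 and 43.1 RPM at 0 DAP. Both were higher at 3 DAP in both crosses, the opposite direction to yabby15, although in counts per library total (CPM) YAB5 was lower at 3 DAP in BxM (62.1 CPM, against 71.0 CPM at 0 DAP).

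FEA4 (GRMZM2G133331), a bZIP factor that limits the size of ear meristems, had 8.38, 0.824, 0.0766, 0.364, 0.409 and 3.26 RPM in BxM and 8.18, 0.853, 0.159, 0.361, 0 and 0.609 RPM in MxB. The crosses were alike in kernels, and the BxM library at 15 DAP stood apart from the other endosperm libraries. Of the other ear meristem size genes in the table, TD1, fea2, fea3 and ct2, none was a member, with scores of 0.13 for TD1 and below 0 for the other 3. NAC46 (GRMZM2G041668), of the plant-specific NAC family, had 1.19 and 3.40 RPM at 3 DAP in BxM and MxB, against 6.52 and 8.05 RPM at 0 DAP. EREB161 (GRMZM2G021573), with an AP2/ERF domain, was low even at its peak, with 1.49 RPM in BxM and 1.99 RPM in MxB at 0 DAP. Of 16 NAC and 20 AP2/ERF models above 1 RPM at 0 DAP, these were the single member of each family, against 0.543% of all models.

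Of 27 MADS-box models with at least 1 RPM in both 0 DAP libraries none was a member. Over all models above that level 0.543% were members, so a count of 0 is near the background. The MADS-box list, which includes the ovule and carpel genes of maize, summed to 4026 and 3051 RPM at 3 DAP in BxM and MxB, against 3123 and 2991 RPM at 0 DAP. It reached 4062 and 3874 RPM at 5 DAP and dropped to 101 and 113 RPM in endosperm at 7 DAP. On this scale the sum of the list was not lower in kernels at 3 and 5 DAP than at 0 DAP. Scaled to the library total instead, it was lower at 3 DAP, with 4189 and 3866 CPM in BxM and MxB, against 4314 and 4407 CPM at 0 DAP. At 5 DAP it was higher, with 4731 and 4545 CPM. The sum hides models that differ. Of the 27, 5 had a 0 DAP signal above every later one in both crosses. Among them bde1 had 77.3 and 129 RPM at 3 DAP in BxM and MxB, against 138 and 181 RPM at 0 DAP. MADS11 was highest in endosperm at 15 DAP, with 52.8 and 69.0 RPM.

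**Figure D2:**
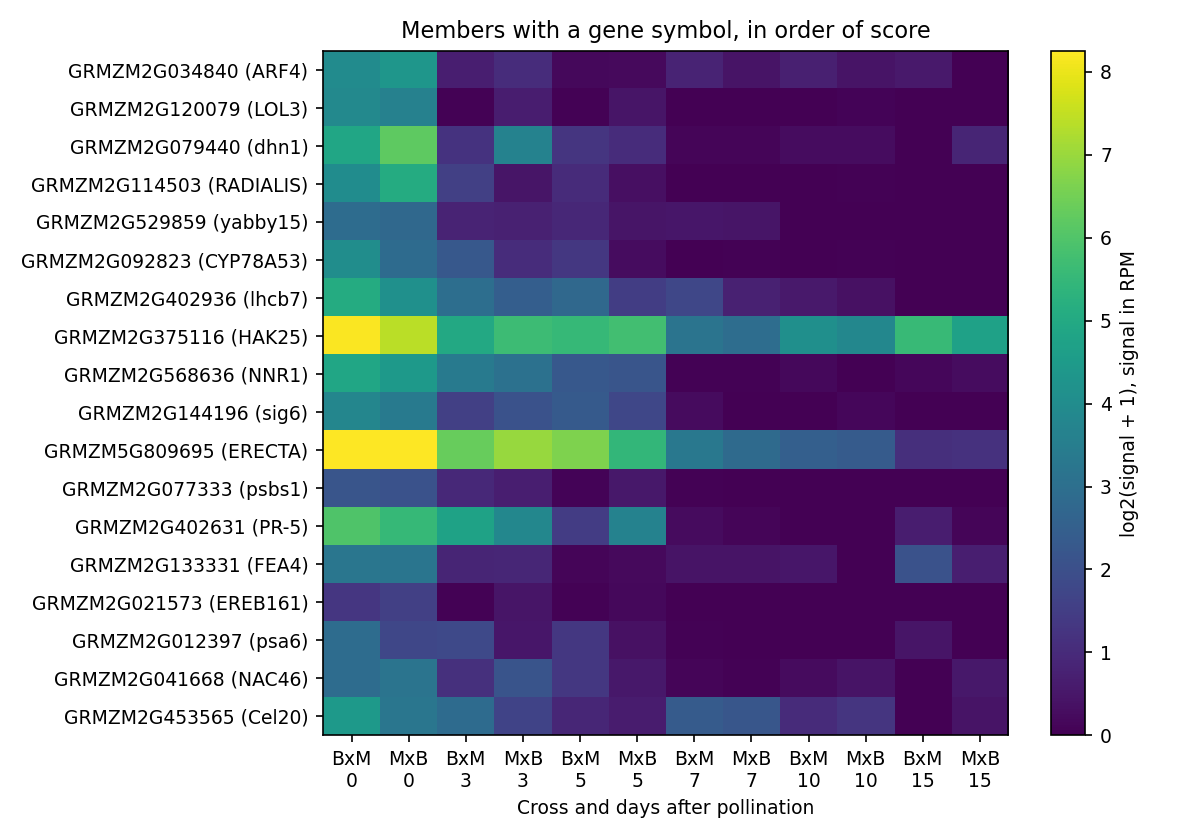
Signal of the 18 members with a gene symbol (rows, highest score at the top) in the 12 libraries (columns, BxM left of MxB at each age in DAP), coloured by log2 of RPM plus 1. In each row the 0 DAP column is the brightest of its own cross, HAK25 regains signal at 15 DAP (46.3 RPM in BxM and 25.3 RPM in MxB), and FEA4 does so in BxM (3.26 RPM).

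Photosynthesis contributed 3 members. The gene lhcb7 (GRMZM2G402936) encodes a chlorophyll-binding antenna protein, psbs1 (GRMZM2G077333) the photosystem subunit that helps to dissipate excess light energy, and psa6 (GRMZM2G012397) carries a symbol of the photosystem I series. In BxM lhcb7 had 33.1, 6.91, 5.98, 2.38, 0.471 and 0 RPM at the 6 ages, and in MxB 16.7, 4.53, 1.82, 0.707, 0.294 and 0 RPM. It was lower at each successive age in both crosses, with BxM above MxB at every age but 15 DAP. The signal of psbs1 at 3 DAP was 0.934 RPM in BxM and 0.606 RPM in MxB, against 3.52 and 3.22 RPM at 0 DAP. For psa6 the 3 DAP values were 2.53 RPM in BxM and 0.408 RPM in MxB, against 6.50 and 2.38 RPM at 0 DAP.

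These 3 were among 12 photosynthesis models with at least 1 RPM in both 0 DAP libraries. Of the 12, 7 had a 0 DAP signal above every later one in both crosses, or 58.3%, against 10.8% of all models above that level. The 7 include the 3 members, and the rule that chose these used the same values, so the shares are a description with no test. The median score of the 12 was 0.24. The photosystem I gene psan1 fell just short of the rule with a score of 0.99, and its signal was 0.602 RPM in BxM and 0.841 RPM in MxB at 3 DAP, against 2.43 and 3.78 RPM at 0 DAP. The antenna gene lhcb5 had 13.3 and 15.8 RPM at 3 DAP, against 18.1 and 25.0 RPM at 0 DAP. The list was not uniform: 5 of the 12 had scores below 0, among them psah1 (-0.88) and PSA2 (-0.52), each with a later value in at least 1 cross above its 0 DAP value. The member sig6 (GRMZM2G144196) encodes a sigma factor, which directs the plastid RNA polymerase to its promoters, and it had 1.96 and 3.27 RPM at 3 DAP in BxM and MxB, against 12.7 and 9.66 RPM at 0 DAP. It was 1 of 7 sigma factor models above 1 RPM at 0 DAP, of which 3 are models of sig2B with the same values. The symbol sig1 is also held by more than 1 of them, so the 7 models are fewer genes. Of these 7 models 6 had a 0 DAP signal above every later one in both crosses. The median score of the 7 was 0.56, which is the score of the sig2B models. This list was added after the values were seen, and the rule used the same values, so these counts are a description.

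The receptor kinase gene ERECTA (GRMZM5G809695), whose Arabidopsis namesake governs inflorescence and ovule growth, was nearly equal in both lines before pollination. In BxM it had 304, 79.1, 101, 8.78, 4.69 and 1.18 RPM at 0, 3, 5, 7, 10 and 15 DAP, and in MxB 303, 127, 42.9, 6.17, 4.14 and 1.25 RPM. Kernels and endosperm did not overlap in either cross. The largest gaps between the crosses were at 3 and 5 DAP, in opposite directions.

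HAK25 (GRMZM2G375116), of a family of potassium transporters, had 292, 30.8, 44.9, 8.07, 16.3 and 46.3 RPM in BxM and 168, 49.1, 52.5, 6.71, 13.04 and 25.3 RPM in MxB. Its signal was lowest at 7 DAP in both crosses and higher again at 10 and 15 DAP. Of 15 potassium transporter models of the HAK family above 1 RPM at 0 DAP, it was the only member, against 0.543% of all models. NNR1 (GRMZM2G568636) encodes a nitrate reductase, which turns nitrate into nitrite. It had 28.6, 9.49, 3.79, 0.0303, 0.123 and 0.0944 RPM in BxM and 20.9, 7.52, 3.55, 0.0301, 0 and 0.215 RPM in MxB, nearly the same course in both crosses and close to the counting floor in endosperm.

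Stress and defence genes were represented by dhn1 and PR-5. The dehydrin gene dhn1 (GRMZM2G079440, also called rab17) is induced by abscisic acid and water loss. It had 28.5, 1.30, 1.44, 0.0910, 0.205 and 0 RPM in BxM and 72.0, 11.7, 1.05, 0.0752, 0.196 and 0.824 RPM in MxB. The MxB library was thus the higher at 0 DAP, when it holds Mo17 kernels alone, and at 3 DAP, and the lower at 5 DAP. Of the other dehydrins, dhn2 had the same direction with a smaller fall and a score of 0.31. It had 195 and 320 RPM at 3 DAP in BxM and MxB, against 365 and 396 RPM at 0 DAP. In the other direction, dehydrin7 had 97.7 RPM at 3 DAP in BxM, against 68.05 RPM at 0 DAP. In MxB it was nearly level on this scale, with 80.7 RPM at 3 DAP, against 78.7 RPM at 0 DAP. Its unscaled counts in MxB were lower at 3 DAP, with 6522, against 7725 at 0 DAP. PR-5 (GRMZM2G402631), of the thaumatin-like pathogenesis-related proteins, had 61.9, 26.1, 1.74, 0.182, 0 and 0.566 RPM in BxM and 45.6, 13.2, 11.5, 0.0903, 0 and 0.0717 RPM in MxB. BxM was the higher cross at 0 and 3 DAP and the lower at 5 DAP.

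LOL3 (GRMZM2G120079) belongs to the zinc finger proteins related to LSD1, which restrains cell death in Arabidopsis. It had 0.0317 and 0.581 RPM at 3 DAP in BxM and MxB, against 13.8 and 11.4 RPM at 0 DAP, and 0 to 0.0654 RPM in endosperm. CYP78A53 (GRMZM2G092823) is a cytochrome P450 of the CYP78A family, in which KLUH of Arabidopsis promotes organ and seed growth, and it had 3.85 and 1.08 RPM at 3 DAP, against 15.7 and 6.32 RPM at 0 DAP. Cel20 (GRMZM2G453565), named as an endoglucanase that cuts cellulose, had 6.45 and 2.18 RPM at 3 DAP, against 21.0 and 8.36 RPM at 0 DAP, and it still had 4.22 RPM in BxM and 3.58 RPM in MxB in endosperm at 7 DAP. Cel20 was 1 of 6 endoglucanase models above 1 RPM at 0 DAP. None of 9 expansin models, which loosen cell walls, and none of 24 protein phosphatase 2C models was a member. The same held for 10 models of the lipoxygenase family, in which some enzymes start jasmonate synthesis. These counts of 0 are near the background, as 0.543% of all models above 1 RPM in both 0 DAP libraries were members.

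**Figure D3:**
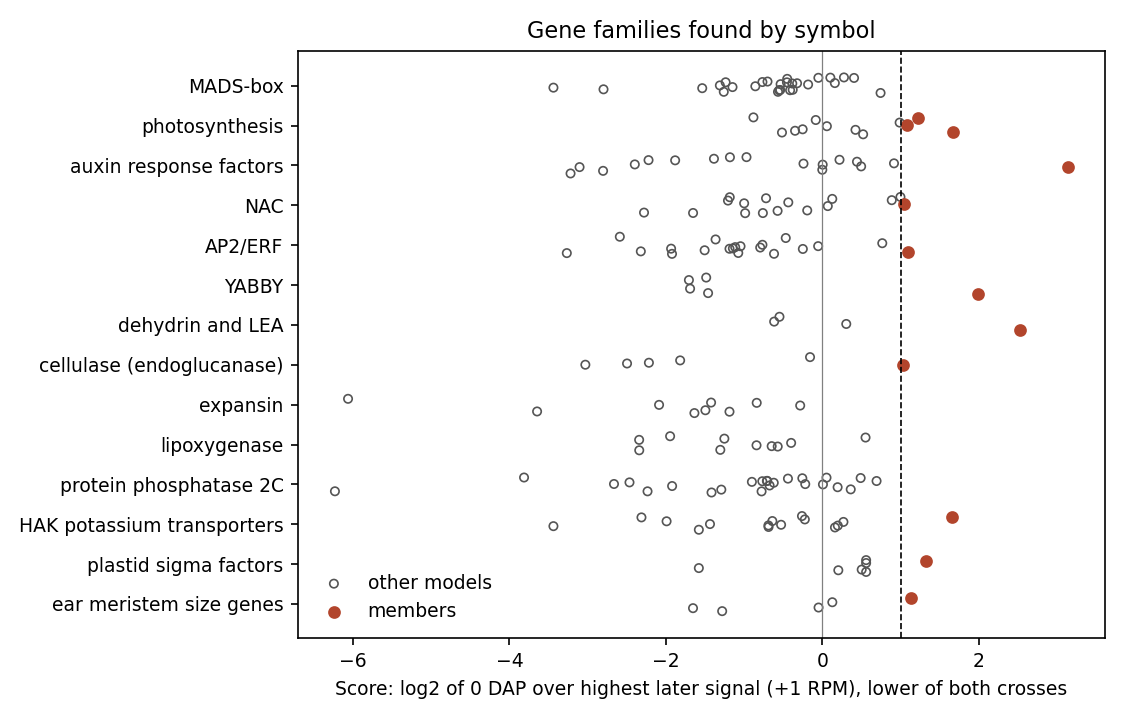
Score of each gene model with at least 1 RPM in both 0 DAP libraries (horizontal axis: log2 of the 0 DAP signal plus 1 over the highest later signal plus 1, the lower of both crosses), in 14 gene lists filled by symbol (vertical axis); filled points are members, open points other models, and the dashed line marks a score of 1. Photosynthesis holds 3 members of 12 models, the MADS-box list none of 27, and yabby15 lies far to the right of the other 4 YABBY models. Of all models above that level 0.543% were members.

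The embryo sac genes listed had the same direction in sum at trace levels, too low for the rule to count them. The embryo sac peptide genes es1, es2 (1 model with es3) and es4 together had 62 counts in BxM and 69 in MxB at 0 DAP, and between 0 and 4 counts in each of the 10 later libraries. Singly they were uneven at 0 DAP: es1 had 28 counts in BxM and 4 in MxB, and es4 had 16 and 53. The 4 counts of es1 lie close to the 3 counts that a count of 0 allows. Each of these genes was under 1 RPM at 0 DAP, and the 1 RPM added to both sides of the ratio held their scores to between 0.06 and 0.24. Endosperm markers (o2, bt2, gz27, fl4 and sh2, 5 models) summed to 35.4 RPM in BxM and 32.1 RPM in MxB at 0 DAP, mostly from bt2 and gz27, before any endosperm exists. Embryo markers summed to 0.179 and 0.326 RPM at 0 DAP, and the 3 pollen markers were at 0 in all 6 kernel libraries. The part of the endosperm marker signal at 0 DAP in the members' values was not tested.

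Most other members with high scores carry no symbol. GRMZM2G113272, second by score, had 0.380 and 0.458 RPM at 3 DAP in BxM and MxB, against 11.4 and 12.3 RPM at 0 DAP. GRMZM2G004207 had 5.24 and 2.14 RPM at 3 DAP, against 27.2 and 13.4 RPM at 0 DAP, and the BxM value was the higher at both ages. Only 11 members kept 10% or less of their 0 DAP signal at 3 DAP in both crosses, ARF4, LOL3 and GRMZM2G113272 among them. In BxM 26 members did so, and in MxB 16.

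Among the members of highest signal before pollination, 4 of the 6 with at least 100 RPM in both 0 DAP libraries have no symbol. GRMZM2G166159 had 180, 19.8, 27.5, 12.0, 7.84 and 10.8 RPM in BxM and 176, 68.4, 47.6, 12.8, 8.38 and 13.4 RPM in MxB at 0, 3, 5, 7, 10 and 15 DAP. It kept a steady low signal in endosperm, with both crosses alike. GRMZM2G063431 had 85.5 and 59.2 RPM at 3 DAP in BxM and MxB, against 197 and 242 RPM at 0 DAP, and stayed at or under 0.430 RPM in endosperm. GRMZM2G075255 and GRMZM2G157727 had 60.1 and 10.0 RPM at 3 DAP in BxM, against 246 and 113 RPM at 0 DAP, and 85.8 and 36.4 RPM at 3 DAP in MxB, against 176 and 109 RPM at 0 DAP. In 3 of these 4 genes MxB held more than BxM at 3 DAP, and GRMZM2G063431 went the other way. GRMZM2G176647 had the MxB excess as well, with 13.4 RPM in BxM and 53.8 RPM in MxB at 3 DAP, whereas GRMZM2G173124 had 29.3 and 25.5 RPM.

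At the other end of the rule the boundary cut through a continuous range. Just inside it lay GRMZM2G042442, GRMZM2G012322 and GRMZM2G163116, with scores of 1.01, 1.01 and 1.00. GRMZM2G042442 had 40.0 and 39.4 RPM at 0 DAP in BxM and MxB, with the highest later value of 19.4 RPM at 5 DAP in BxM and of 16.3 RPM at 3 DAP in MxB. Just outside lay GRMZM2G440219, GRMZM2G002748 and GRMZM2G308907, with scores of 0.9986, 0.9955 and 0.9947. GRMZM2G440219 matched the same reference gene as the member NAC46 and had a like course, with 1.03 and 2.21 RPM at 3 DAP, against 4.49 and 5.42 RPM at 0 DAP.

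Some members are not independent of each other. By counts that agreed within 20% wherever they reached 20, 10 members fell into 5 pairs. GRMZM2G549237 and GRMZM2G491036 missed this limit at a single library (22 and 17 counts in MxB at 10 DAP) and were otherwise as alike, so the number of distinct genes is not fixed by it. The pairs are GRMZM5G882280 with AC204212.4_FG001, GRMZM2G153184 with GRMZM2G575461, GRMZM2G160143 with GRMZM2G160268, GRMZM2G448295 with GRMZM2G062854, and GRMZM2G173124 with GRMZM5G854367. Such models may be copies or overlapping models that hold the same reads. In the reference order psa6 lies next to the member GRMZM2G012324, and GRMZM2G080731 lies next to the member GRMZM2G340224. Whether the counting used strand is not stated, so reads of overlapping neighbours cannot be told apart.

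For most members the highest later value lay in the kernel. The rule uses this value, and the same share over all models was not computed, so these counts are a description of the members chosen. Of all models of at least 1 RPM in both 0 DAP libraries, 56.3% in BxM and 51.9% in MxB were lower in endosperm at 7 DAP than in kernels at 5 DAP. The highest later age was 3 DAP for 74 members in BxM and 111 in MxB, and 5 DAP for 43 and 16. It was 3 DAP in both crosses for 66 members, and 3 or 5 DAP in both for 114. Of the 18 members with a symbol, 14 had their highest later value at 3 or 5 DAP in both crosses. The other 4 were ARF4, HAK25 and FEA4, by their BxM values, and Cel20, by its MxB value.

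In 10 members the highest later value fell in endosperm in both crosses. GRMZM2G045239 had 50.8, 3.45, 0.817, 2.75, 14.1 and 1.61 RPM in BxM and 42.5, 2.51, 0.598, 2.14, 8.90 and 5.77 RPM in MxB at the 6 ages, with a second maximum at 10 DAP in both crosses. GRMZM5G895087 also had its later maximum at 10 DAP, with 3.87 RPM in BxM and 3.35 RPM in MxB. GRMZM2G015976 had 13.2 RPM in BxM and 10.4 RPM in MxB at 15 DAP, against 1.78 and 2.23 RPM at 7 DAP, and GRMZM2G096407 and GRMZM2G113421 also had their later maximum at 15 DAP. GRMZM2G012970, GRMZM2G120954, GRMZM2G463726 and GRMZM5G892991 had it at 7 DAP. GRMZM2G086949 had it at 7 DAP in BxM and at 10 DAP in MxB.

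Changes among the ages after pollination were tested with edgeR's quasi-likelihood test on the counts of the 10 later libraries, with age and cross as terms and Benjamini-Hochberg adjustment over 44624 models. A model was called at an adjusted p under 0.05. Of the members 136 passed the low-count filter. EREB161, GRMZM2G163116, GRMZM2G179181 and GRMZM2G481440 did not and were not tested. Each age has 1 library per cross, so the p-values measure how unequally the crosses behave and not the spread between plants. The rule caps every later value of a member but not of other models, so members and all models are not on equal terms.

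From 3 to 5 DAP, within whole kernels, no member was called in either direction. By edgeR 15 members had an unadjusted p under 0.05 (11% of those tested, against 8.83% of all models). DESeq2 called 3 of the 136, all lower at 5 DAP, against 2.24% of all models, so both counts were near the background. Over all models 0.0247% were called higher at 5 DAP and 0% lower. The median log2 fold change of the tested members was -0.72, against 0.02 over all models, and 108 of the 136 lay below 0. In MxB 123 of the 140 members had less signal at 5 DAP than at 3 DAP (87.9%), against 52.6% of all models of at least 1 RPM in both 0 DAP libraries. In BxM the count was 85 (60.7%), against 48.4% of all models, and 79 members were lower at 5 DAP in both crosses.

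The share of the 0 DAP signal that members kept was also set side by side for the crosses. This is a description, since single libraries carry any difference and the rule used these values. At 3 DAP 89 of the 140 members (63.6%) had kept a smaller share of their 0 DAP signal in BxM than in MxB, against 51.4% of all models. At 5 DAP 47 members (33.6%) had done so, against 41.2% of all models. The order was therefore the reverse at the later age, and the share over all models moved in the same direction. With 1 library per cross and age the difference has no replicate check.

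**Figure D4:**
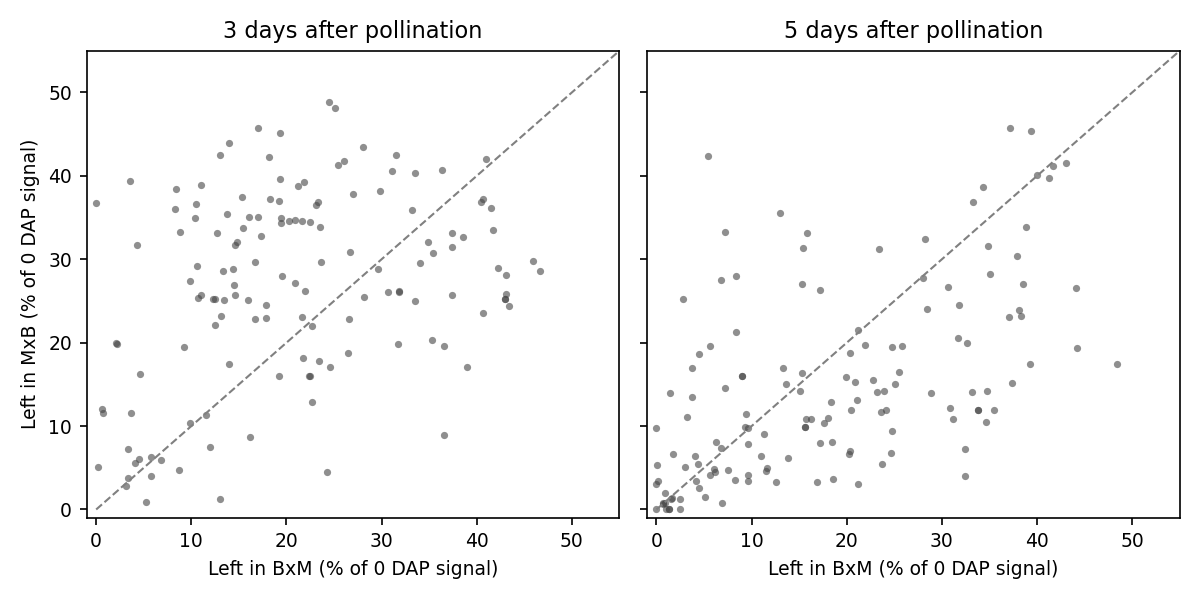
Share of the 0 DAP signal left in each of the 140 members at 3 DAP (left) and 5 DAP (right), as a percentage, for BxM (horizontal axis) and MxB (vertical axis); the dashed line marks equal shares. At 3 DAP 89 members lie above the line, with a smaller share in BxM, and at 5 DAP 47 do.

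The largest step after 3 DAP came between kernels at 5 DAP and endosperm at 7 DAP. Of the tested members 51 were lower at 7 DAP (37.5%) and 0 were higher, against 13.4% of all tested models called lower and 9.83% called higher by edgeR (23.2% in either direction). DESeq2 called 70 members lower and 4 higher, against 32.6% of all models in either direction. The rule chose models high in 0 DAP kernels and capped their 7 DAP value, so these differences from all models are in part set by the choice of members. The median log2 fold change of members was -2.74, against 0.01 over all models. This step changes the tissue and the age at once, and the effects of tissue and age cannot be told apart. Of the gene lists, 7 of 16 tested photosynthesis models were called lower and 1 higher (median log2 fold change -3.42), and 21 of 30 tested MADS-box models were lower and 1 higher (median -5.82), so most tested models of a list without members were also lower at this step. Over all 140 members, tested or not, 117 were lower at 7 DAP in BxM (83.6%, against 56.3% of all models of at least 1 RPM in both 0 DAP libraries), 113 in MxB (80.7%, against 51.9%) and 105 in both.

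Of the 51 called members 5 had a symbol: ERECTA, HAK25, NNR1, PR-5 and psa6. ERECTA fell by 3.18 on the log2 scale (SE 0.42, edgeR adjusted p = 0.002145) and HAK25 by 2.70 (SE 0.41, adjusted p = 0.003321), both lower in endosperm in 2 of 2 crosses. NNR1 fell by 6.81 (SE 1.30, adjusted p = 0.008037) and PR-5 by 5.80 (SE 1.38, adjusted p = 0.02335). The signal of psa6 fell by 6.01 (SE 1.60, adjusted p = 0.03474), with 2 and 0 counts at 7 DAP in BxM and MxB. Among members without a symbol, GRMZM2G042181 fell by 7.10 (SE 0.72, adjusted p = 0.0008867) and GRMZM2G063431 by 7.23 (SE 0.79, adjusted p = 0.001103). GRMZM2G143328 had 0 and 2 counts at 7 DAP in BxM and MxB, against 319 and 730 counts at 5 DAP.

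Of the 51, 17 had 3 counts or fewer in both 7 DAP libraries, which is the most that a count of 0 allows. Leaving out 1 of the 4 libraries of this step, edgeR called 27 members (BxM at 5 DAP left out), 28 (MxB at 5 DAP), 16 (BxM at 7 DAP) and 24 (MxB at 7 DAP). ERECTA and HAK25 kept their calls in each of these fits. NNR1 lost its call without either 7 DAP library. PR-5 lost it without either 7 DAP library or MxB at 5 DAP, when its fall was 2.93. The call of psa6 was lost without BxM at 3 DAP or any of the 5 and 7 DAP libraries.

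Within endosperm many members had few counts to test: 77 of the 140 were under 1 RPM in all 6 libraries, and 91 passed the low-count filter when these libraries were fitted alone. From 7 to 10 DAP 1 member was called higher and 1 lower by edgeR, against 1.94% and 0.601% of all models (2.54% in either direction), and the members' median log2 fold change was -0.16, against -0.06. DESeq2 called 13 members higher and 10 lower, against 10.9% of all models in either direction. AC234165.1_FG002 had 3.64 and 6.79 RPM at 10 DAP in BxM and MxB, against 0.334 and 0.587 RPM at 7 DAP (log2 fold change 3.49, SE 0.63, adjusted p = 0.03299). AC208110.2_FG006 had 2.37 and 2.16 RPM at 10 DAP, against 22.3 and 15.0 RPM at 7 DAP (-2.998, SE 0.61, adjusted p = 0.04712). Neither call held without any single one of the 4 libraries at 7 and 10 DAP, and the lower one was also lost without either 15 DAP library.

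From 10 to 15 DAP 15 members were called lower (11%) and 2 higher (1.47%), against 10.6% and 3.99% of all models, so the members' share was near the background. DESeq2 called 6 higher and 21 lower, against 23.5% of all models in either direction. AC234165.1_FG002 fell again, to 0.0944 and 0.0358 RPM at 15 DAP in BxM and MxB (-6.17, SE 0.84, edgeR adjusted p = 0.003778). GRMZM2G135586 had 2 and 0 counts at 15 DAP, against 309 and 194 at 10 DAP. GRMZM2G012970 fell by 3.45 (SE 0.60, adjusted p = 0.008453), a call lost without MxB at 10 DAP. ERECTA fell by 1.65 (SE 0.43, adjusted p = 0.03751), a call lost with upper-quartile factors and without any single 10 or 15 DAP library or MxB at 7 DAP. Of the 15, 6 were listed at 0 in both 15 DAP libraries, among them lhcb7, GRMZM2G016923 and GRMZM2G146694. The call of lhcb7 was lost without any single 10 or 15 DAP library.

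HAK25 was 1 of the 2 members called higher at 15 DAP. Its log2 fold change was 1.47 (SE 0.39, edgeR adjusted p = 0.04113), higher in 2 of 2 crosses. Without BxM at 15 DAP it was 0.89, and the call was lost there and in 5 other fits that left out MxB at 5 DAP or a 7 or 10 DAP library. The other was GRMZM2G114552, at traces of 10 and 5 counts at 15 DAP in BxM and MxB, against 2 and 0 counts at 10 DAP (adjusted p = 0.03957), and its call was lost in 8 of the 10 fits that left out a library. Leaving out a library, edgeR called 8 members at this step (BxM at 10 DAP left out), 4 (MxB at 10 DAP), 5 (BxM at 15 DAP), 10 (MxB at 15 DAP) and 11 (MxB at 7 DAP).

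Zeros at 15 DAP carry a further limit. Over all models, 20 with a mean of at least 5000 counts at 10 DAP are listed at 0 in both 15 DAP libraries, and none of them is a member. Of the members 60 had 0 counts in BxM and 61 in MxB at 15 DAP, 45 of them in both. Only 3 of these 45 had a mean of 50 or more counts at 10 DAP, so for most of them the zero follows a low level.

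**Figure D5:**
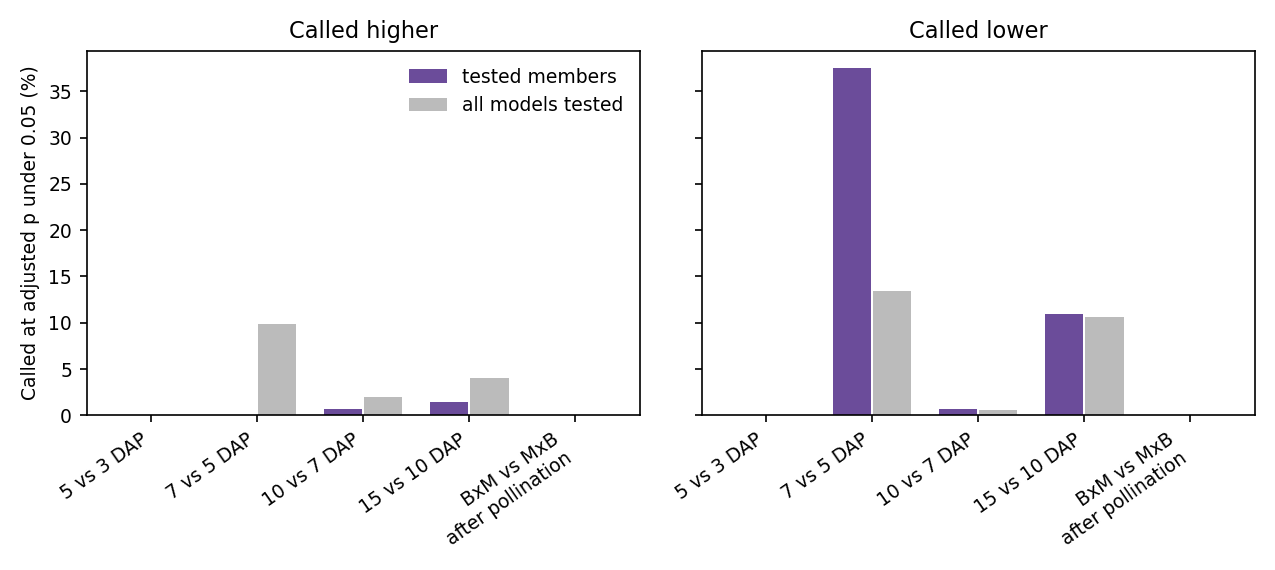
Share of the 136 tested members (dark bars) and of all 44624 tested models (grey bars) called at an edgeR adjusted p under 0.05 in each comparison (horizontal axis), higher (left) or lower (right), in percent. At 7 against 5 DAP 37.5% of the members were called lower, against 13.4% of all models, and at 15 against 10 DAP the shares were 11% and 10.6%. The rule caps later values of members but not of all models.

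Between the crosses after pollination no member was called by edgeR, against 0.0179% of all models, 0.00896% with BxM higher and 0.00896% with BxM lower. By the same test 10 members had an unadjusted p under 0.05 (7.35% of those tested, against 14% of all models), 5 with BxM above MxB and 5 below. DESeq2 called 5 of the 136, against 7.75% of all models. The 4 kernel libraries of 3 and 5 DAP alone gave 5 called members of 135, 2 with BxM above MxB and 3 below, against 7.68% of all models. The 6 endosperm libraries alone gave 0 of 91 tested, against 0.0129% of all models. The largest contrast by p was in GRMZM2G042181, with 59.6 RPM in BxM and 187 RPM in MxB at 0 DAP, 12.7 and 72.7 RPM at 3 DAP, and 3.23 and 79.3 RPM at 5 DAP. MxB was above BxM in all 3 kernel pairs.

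The 0 DAP libraries compare the inbred lines themselves. The median log2 ratio of B73 (BxM) over Mo17 (MxB) was 0.14 over the members. With 1 RPM added to both signals, as in all ratios of the lines given here, a ratio above 2-fold was found in 21 members with B73 the higher (15.0%) and in 11 with Mo17 the higher (7.86%), against 11.5% and 9.47% of all models of at least 1 RPM in a 0 DAP library. These shares have no replicate check. The column headers name B73 for the mapping, so Mo17 reads may be counted less well. The part of mapping in these ratios was not tested.

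The strongest line differences ran both ways. GRMZM2G114552 had 23.4 RPM in B73 (BxM) kernels and 4.14 RPM in Mo17 (MxB) kernels at 0 DAP, a log2 ratio of 2.25. GRMZM2G481440, GRMZM2G014844, GRMZM2G179349 and GRMZM2G096407 followed with log2 ratios of 2.13, 2.03, 1.83 and 1.61, and GRMZM2G179349 had 42.8 and 11.3 RPM. In the other direction GRMZM2G022958 had 5.56 RPM in B73 and 42.6 RPM in Mo17 kernels, and GRMZM2G413774 had 6.05 and 37.5 RPM. GRMZM5G803365, GRMZM2G005146 and GRMZM2G131104 followed with log2 ratios of -2.40, -1.92 and -1.81. The highest later value among these 10 was 12.1 RPM, and the highest at 0 DAP was 46.9 RPM.

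Line differences mostly kept their sign in the pollinated kernels. Of the 32 members with a ratio above 2-fold at 0 DAP, 28 had the same sign at 3 DAP (87.5%) and 26 at 5 DAP (81.2%), against 91.5% and 91.6% of all models. GRMZM2G179349 was an exception, with 0.934 RPM in BxM and 2.25 RPM in MxB at 3 DAP. GRMZM5G803365 kept its order, with 2.39 RPM in BxM and 12.1 RPM in MxB at 3 DAP and 1.75 and 12.0 RPM at 5 DAP. Across members the log2 ratios at 0 and 3 DAP had a Pearson r of 0.60 and those at 0 and 5 DAP of 0.45 (n = 140 models), against 0.69 and 0.75 over all models. These are descriptions across models that share their libraries.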

How the data were processed

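Read counts per gene model were deposited by the authors for each of the 12 libraries; Bowtie and bedtools were used, per the submitters' processing notes, whose versions, build and annotation were not given in the sources used here. A deposited note describes the authors' signal as RPM scaled by edgeR's TMM factors. Total counts, summed over models that can share reads, were 59378582 to 70930121 at 0 to 10 DAP and 35401314 (BxM) and 39864984 (MxB) at 15 DAP. A count of 0 allows up to 3 counts, or 0.0306 to 0.142 RPM, which covers counting error only.

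Scores used the signal with 1 RPM added. Tests used the counts in edgeR 4.0.16 (R 4.3.3; filterByExpr, TMM, glmQLFTest, 4 residual degrees of freedom), with SE derived from the F statistic, and were tested on simulated data. DESeq2 1.42.0, other scalings, filters and leave-one-out fits were tried. Gene lists were filled by symbol alone; the HAK, sigma factor and ear meristem lists were added after the values were seen. Members and lists were chosen with earlier results of these data known. Named members are the 10 by score and by 0 DAP signal, those with symbols or called with the smallest p, those at the edge of the rule and extremes of the line ratio. Figures used matplotlib 3.10.9.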

Additional observations from a re-analysis of the deposited data

How the results depend on the processing

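The choice of members depended on the 1 RPM added to each signal. With 5 RPM added 51 models scored above 1, all of them members, and with 0.1 RPM added 373 did, of which the 150 highest shared 84 with the 140. Scaling to the library total gave 356 models above 1 and moved the median log2 ratio of 0 DAP over a later age by 0.20 to 0.93. The 140 members stayed above 1 there. With 15 DAP left out 174 models scored above 1, with only 3 and 5 DAP as later ages 269, and with the mean of both crosses' scores 308, and the 150 highest shared 122, 97 and 109 with the 140. DESeq2 called 3 members at 5 against 3 DAP (2.24% of all models), 23 at 10 against 7 DAP (10.9%), 27 at 15 against 10 DAP (23.5%) and 5 between the crosses (7.75%). At 10 against 7 DAP the count was 6 with no low-count filter, 12 with all 12 libraries fitted and 0 without the cross as a term. Between the crosses it was 1 with no filter and 5 when fitted to kernels of 3 and 5 DAP alone. Leaving out 1 library at a time, the count was 16 to 57 at 7 against 5 DAP, 0 to 6 at 10 against 7 DAP and 4 to 19 at 15 against 10 DAP. It was 0 in each such fit between the crosses. The cross is what pairs libraries of an age: without it as a block the counts were 0, 43, 0 and 14 at the 4 steps, against 0, 51, 2 and 17 with it. For single members, 248 of 300 alternative values kept their side of the threshold, 52 lost the call and 0 reversed. In the other alternatives run, the counts of called members stayed within 1.5 times. Library totals were lowest at 15 DAP, so low values are least precise there.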

Other observations

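A set of 5 members, noticed after their values were seen, had similar signal in each library: GRMZM2G385622, GRMZM2G385635, GRMZM2G448295, GRMZM2G062854 and GRMZM2G360821. In BxM they had 39.8 to 43.6 RPM at 0 DAP, 7.08 to 9.41 RPM at 3 DAP, 14.9 to 17.4 RPM at 5 DAP and 1.17 to 1.56 RPM at 7 DAP. In MxB the ranges were 29.5 to 33.8 RPM, 10.1 to 11.7 RPM, 11.8 to 15.3 RPM and 2.02 to 2.96 RPM at these ages. They differed most at 10 DAP, with 4.07 to 6.55 RPM in BxM and 3.03 to 4.97 RPM in MxB. At 15 DAP they stood at 9.02 to 10.9 RPM in BxM and 3.15 to 4.87 RPM in MxB, above their 7 DAP values in both crosses. No other model in the table lay within 35% of their mean counts in all libraries. GRMZM2G448295 and GRMZM2G062854 are 1 of the 5 pairs with counts that agreed within 20%, and whether the 5 models share reads was not tested.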
